A study of Mus musculus with 4 samples.

Results

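The histone cluster genes were taken as every gene whose symbol begins with Hist1h, Hist2h, Hist3h or Hist4h, in 10x Genomics single-cell RNA sequencing of mouse tumours. This rule gave 70 of the 55450 genes counted, with 6 for linker histone H1, 20 for H2A, 19 for H2B, 12 for H3 and 13 for H4. Hist2h3c1 and Hist1h2ba had no unique molecular identifier (UMI, a count of captured RNA molecules) in any library, and 68 members had at least 1. The tumours were subcutaneous MC38 tumours of C57BL/6J mice injected at 8 weeks of age. MC38 is a mouse colon carcinoma cell line. The injected cells were either Hnrnpa2b1 knockout (KO) cells or control MC38 cells (WT), and all mice were C57BL/6J with no treatment named in the labels. Hnrnpa2b1 codes for an hnRNP, a protein that binds RNA in the nucleus. Each group held 2 tumours, named here WT 1, WT 2, KO 1 and KO 2, and values are given in that order. The labels name no clone, no guide and no position of the edit, so the knockout could be 1 clone or a pool.

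Histones are the proteins around which DNA is wound. H2A, H2B, H3 and H4 form the core of the nucleosome, and H1 binds the linker DNA between nucleosomes. Cells make most histone protein while they copy their DNA, from genes that lie in clusters and are transcribed in S phase. The mRNAs of these genes usually end just after a short stem-loop instead of in a poly(A) tail. The stem-loop binding protein SLBP holds this structure, and the RNA is broken down when DNA copying ends. Some histone genes also give longer, tailed RNAs, which are known from differentiated and resting cells. Droplet libraries are primed on poly(A), so the counts depend on which of these RNAs carry or contain a run of A. The share of tailed RNA among the member UMIs was not tested.

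In the GENCODE vM21 annotation of GRCm38 (mm10), 56 members lay on chromosome 13, 10 on chromosome 3, 3 on chromosome 11 and 1 on chromosome 6, and 67 of the 70 were annotated as protein coding. The transcript models were searched on the sense strand for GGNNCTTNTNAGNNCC, a 16-base pattern with the stem-loop's paired arms. It was found in 46 of 70 members and in 0.621% of 21901 protein-coding genes. The forms are shown because H4 members held other letters here than members of the other 4 types, which shared forms. Capitals mark the loop. The first 4 forms below were found in 26, 7, 6 and 2 members, and the last in 2.
stem-loop of H1, H2A, H2B and H3 members, among them Hist1h1c and Hist1h2ae: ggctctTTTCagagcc
stem-loop of H4 members, among them Hist1h4d: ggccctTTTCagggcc
stem-loop of Hist1h3c, Hist1h3e, Hist1h2bb and 3 other members: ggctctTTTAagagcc
stem-loop of Hist1h4i and 1 other H4 member: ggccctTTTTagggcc
stem-loop of 2 other H4 members: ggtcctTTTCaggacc
The first form was found in 3 H1, 10 H2A, 8 H2B and 5 H3 members and in no H4 member, and 3 more forms were found in 1 member each (Hist1h4a, Hist1h3g and Hist2h2ac). In 23 members the model went on for at least 100 bases after the stem-loop, in 23 it ended sooner, and in 24 it held no stem-loop of this pattern. Hist1h1c went on for 840 bases and Hist1h2ac for 2010, whereas Hist1h2ap ended 3 bases after it. The Hist1h2bc model had 2 exons over chr13:23684199-23692908 on the plus strand and no such stem-loop, and the Hist1h2ac model, on the other strand, started 251 bases away.

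Promoters, 250 bases before and 50 after each start, came from RefSeq on GRCm38.p6 and matched 61 of the 70 members. Hist1h2aj, Hist1h2al, Hist1h2ap, Hist1h2bc, Hist1h3a, Hist1h3f, Hist2h2be, Hist2h4 and Hist3h2bb-ps had no entry. CCAAT was found on either strand in 85.3% of members' promoters against 37.4% of all 32851 promoters, TATAAA in 57.4% against 13.6%, and the octamer ATTTGCAT in 21.3% against 1.74%. CCAAT was in every matched H1, H2A, H2B and H3 promoter (6, 17, 16 and 10) and in 3 of 12 H4 promoters. The octamer was in 7 of 17 H2A and 6 of 16 H2B promoters and in no promoter of the other types. A match of these letters is a description and not a bound site. The 3 promoters below are those of Hist1h1c and Hist1h1b, which the comparisons turn on, and of Hist1h2ac, whose window covers the start of Hist1h2bc. Capitals mark these motifs on either strand, and each sequence is the gene's own strand.
Hist1h2ac, chr13:23683910-23684209, minus strand, whose window also holds the Hist1h2bc start: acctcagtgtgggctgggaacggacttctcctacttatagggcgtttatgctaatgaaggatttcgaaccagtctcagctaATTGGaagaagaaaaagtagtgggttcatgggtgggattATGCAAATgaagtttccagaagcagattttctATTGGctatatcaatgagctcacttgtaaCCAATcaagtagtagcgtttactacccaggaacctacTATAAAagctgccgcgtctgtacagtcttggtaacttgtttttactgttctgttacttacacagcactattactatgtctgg
Hist1h1c, chr13:23738557-23738856, plus strand: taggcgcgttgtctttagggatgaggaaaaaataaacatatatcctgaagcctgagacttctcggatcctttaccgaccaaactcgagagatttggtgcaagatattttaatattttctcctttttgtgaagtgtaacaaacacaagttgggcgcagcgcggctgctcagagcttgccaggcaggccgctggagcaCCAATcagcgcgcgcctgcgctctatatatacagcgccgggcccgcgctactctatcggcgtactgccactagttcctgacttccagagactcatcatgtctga
Hist1h1b, chr13:21780576-21780875, minus strand: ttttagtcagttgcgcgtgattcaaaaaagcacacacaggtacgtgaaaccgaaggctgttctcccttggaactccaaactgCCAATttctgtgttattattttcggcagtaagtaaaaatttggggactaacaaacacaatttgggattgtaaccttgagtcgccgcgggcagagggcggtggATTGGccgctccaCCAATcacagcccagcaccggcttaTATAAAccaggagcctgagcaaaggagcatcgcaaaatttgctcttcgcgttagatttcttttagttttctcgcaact
The first holds the octamer, CCAAT and TATAAA, the second CCAAT alone and the third CCAAT and TATAAA.

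The libraries held 12741, 11628, 9547 and 9578 barcodes with 153162562, 123655955, 114136609 and 132490304 UMIs, of which 352707, 238362, 137110 and 218651 were from members. After filters, 11333, 10134, 8634 and 8765 cells were analysed, and pairs of libraries shared 21 to 41 barcodes. Epithelial markers were nearly absent, so no cluster could be called tumour-like by them. Clusters with a mean under 1 UMI of Xist and under 1 of Ptprc per 10000 stand in for the injected cells and are called Xist-low cells. Hnrnpa2b1, the knocked-out gene, was at 563 and 553 CPM in the WT and 359 and 327 CPM in the KO Xist-low cells, a log2 fold change of -0.70 ± 0.13 (SE, edgeR adjusted p = 0.0318), and did not pass the threshold in any other class tested. CPM are counts scaled to library size by edgeR within a fit, so values for the same cells differ slightly between fits. Mononuclear phagocytes and T and NK cells were the other classes with enough cycling cells, and class names mean cells like that type by their markers.

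Cell state was read from genes that are not members. Each cell with at least 2000 UMIs was thinned to 2000, and UMIs of 34 S phase and 40 G2M genes were summed. Cells with 6 or more were called cycling and cells with 2 or fewer resting. These are ranges of a score and not cell types, and 710, 428, 80 and 172 Xist-low cells lay just at the cycling limit. By this rule 55.2% and 47.4% of the Xist-low cells with at least 2000 UMIs were cycling in WT and 83.3% and 86.0% in KO, which gave 4490, 3137, 1070 and 2139 cycling and 1848, 2445, 101 and 124 resting cells. Xist-low cells of the KO tumours also had more UMIs, with medians of 11878.5 and 11653.5 in WT and 38503.5 and 31690 in KO. Their clusters differed as well. Cluster 0 held 947 and 1781 of the KO cycling cells against 500 and 816 in WT. Cluster 3, which has fibroblast markers among its leading genes, held 808 and 1560 of the WT resting cells against 4 and 15 in KO.

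Members together took 31.1 and 29.5 of every 10000 UMIs in cycling Xist-low cells in WT and 16.6 and 20.6 in KO. In resting Xist-low cells they took 10.7 and 8.23 in WT and 4.48 and 5.93 in KO. Cycling cells were above resting cells in each of the 4 tumours, and both KO tumours were below both WT tumours in each state. Over the 2 tumours of a group the cycling level was 30.3 ± 1.12 (SD, n = 2) in WT and 18.6 ± 2.84 in KO, a ratio of 0.613, and the resting level was 9.47 ± 1.76 and 5.21 ± 1.03, a ratio of 0.549. With 2 tumours on each side, the smallest two-sided p of an exact permutation test is 0.3333, so no p is given for these sums. At an equal depth of 2000 UMIs per cell the members had 5.81 and 5.82 UMIs per cycling cell in WT and 3.33 and 4.196 in KO. Without thinning the order was the opposite, with 53.1 and 54.1 member UMIs per cycling cell in WT and 72.0 and 72.6 in KO. The KO cells thus held more member UMIs per cell and a smaller share of member UMIs.

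The share of UMIs was lower in both KO tumours than in both WT tumours for each histone type when cycling. In cycling Xist-low cells H1 members took 9.69 ± 1.37 of 10000 UMIs in WT and 5.55 ± 1.27 in KO, H2A members 12.1 ± 2.76 and 7.42 ± 0.529, and H2B members 3.03 ± 0.127 and 1.63 ± 0.298 (mean ± SD, n = 2). H3 members took 1.70 ± 0.130 in WT and 1.13 ± 0.0790 in KO, and H4 members 3.76 ± 0.264 and 2.86 ± 0.672. The ratio of KO to WT ran from 0.537 for H2B to 0.761 for H4. In resting cells H2B members took 3.30 in WT and 1.48 in KO, and H2A members 1.52 in WT and 1.18 in KO, where WT 1 at 2.21 was above and WT 2 at 0.822 below the KO tumours.

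**Figure D1:**
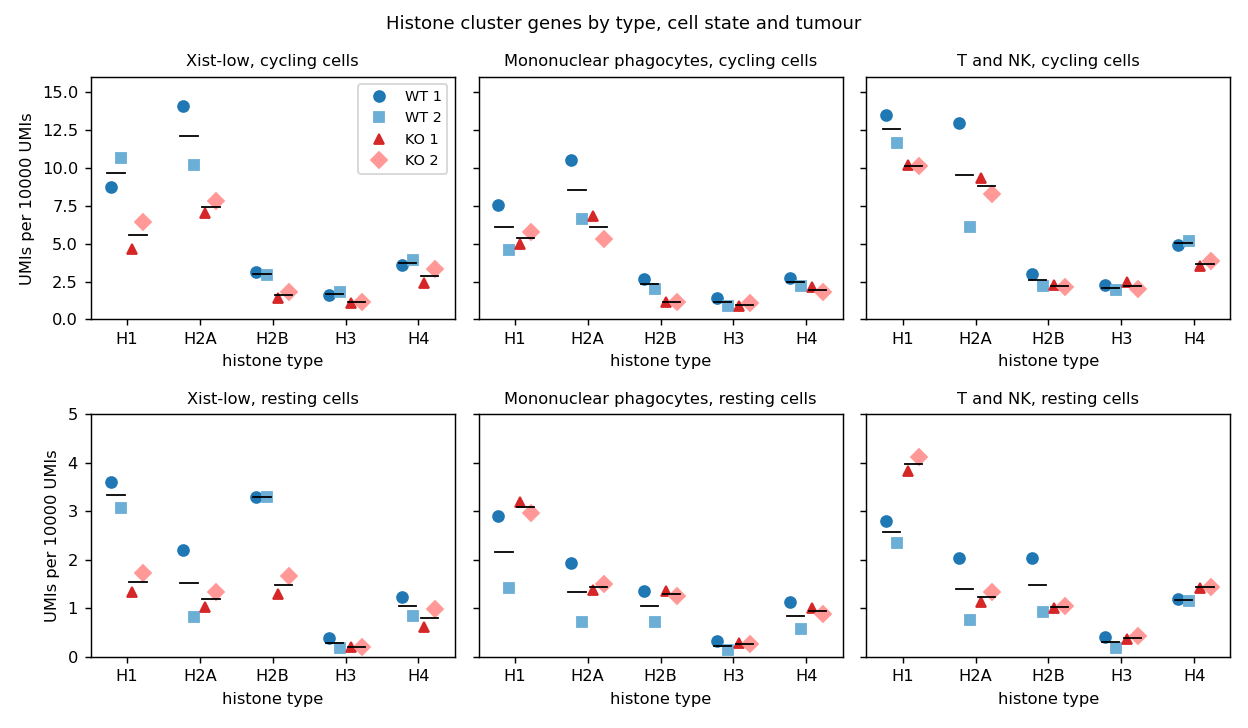
UMIs of each histone type per 10000 UMIs (y axis) in cycling (top) and resting (bottom) cells of 3 classes, with 1 symbol per tumour and a black line at each group mean. In Xist-low cells the KO symbols lie below the WT symbols for all 5 types when cycling, and H2B is the type whose resting level in WT is as high as its cycling level.

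In mononuclear phagocytes, the macrophages and monocytes of the tumour, members took 24.8, 16.3, 15.96 and 15.1 of 10000 UMIs when cycling and 7.64, 3.56, 7.20 and 6.88 when resting. T and NK cells, the lymphocytes, had 36.6, 27.2, 27.8 and 26.3 when cycling and 8.48, 5.36, 7.74 and 8.37 when resting. WT 1 had the highest value in each of these 4 sums, and in resting cells of both classes the KO tumours lay between the WT tumours. Resting T and NK cells had H1 members at 2.81, 2.34, 3.83 and 4.12 of 10000 UMIs, where both KO tumours were above both WT tumours. These values came from 49, 137, 1056 and 1022 cells, with 2.90, 1.92, 3.87 and 3.11 UMIs of all members per cell. Neutrophils, which do not divide, had 9.597, 3.95, 4.41 and 4.48, in 50, 355, 729 and 391 cells. The WT 1 value rests on 54 member UMIs. The part of free RNA in these levels was not tested.

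Most members were higher in cycling than in resting Xist-low cells. Of 70 members 58 passed the filter on low counts, 50 were higher and 2 lower (edgeR with the tumour as a block, adjusted p under 0.05 over all genes). Of all genes tested, 45.3% were called, 22.3% as higher and 23% as lower. The median log2 fold change was 2.70 over tested members and -0.04 over all genes. The filter kept members through the sums of either state. Some, among them Hist1h3b and Hist1h1a, passed it here but not in the fit of resting cells alone. For such members the filter largely set the direction, so the count and the median lean to higher values. The same limit holds for the immune classes below. By type, 4 of 5 tested H1 members, 13 of 16 H2A, 13 of 15 H2B, 8 of 10 H3 and 12 of 12 H4 members were higher.

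Among H1 genes, Hist1h1b had 415, 521, 189 and 280 CPM in cycling cells and 38.4, 17.9, 16.2 and 26.6 CPM in resting cells. Every cycling value was above every resting value, at a log2 fold change of 3.92 ± 0.21 (SE, edgeR adjusted p = 3.54e-08). Hist1h1e, a further H1 gene, rose by 2.38 ± 0.11 on the log2 scale (edgeR adjusted p = 7.96e-09), and Hist1h1d and Hist1h1a were also called. Hist1h1c was the tested H1 gene that was not called. It had 150, 163, 62.4 and 96.1 CPM in cycling and 257, 251, 48.1 and 77.9 CPM in resting cells, a log2 difference of -0.28 ± 0.16 (edgeR adjusted p = 0.179). Its resting values were the higher ones in the WT tumours and the lower ones in the KO tumours.

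H2A and H2B genes encode the partners of a dimer. Hist1h2ap had 922, 512, 413 and 465 CPM when cycling and 105, 24.3, 42.6 and 72.5 CPM when resting, a log2 fold change of 3.41 ± 0.21 (edgeR adjusted p = 9.75e-08). The model shares 92.4% of its 90-base stretches with other members, so UMIs may be divided among copies, and 27 members share over 50%. Hist1h2ae rose by 3.29 ± 0.14, Hist1h2ab by 3.94 ± 0.18 and Hist2h2bb by 3.03 ± 0.14. Hist1h2bc went the other way, with 147, 118, 42.7 and 65.2 CPM in cycling and 291, 317, 90.4 and 131 CPM in resting cells. It was higher in resting cells in all 4 tumours, at a log2 difference of -1.13 ± 0.08 (edgeR adjusted p = 2.64e-07). The same order was seen within cluster 0, where Hist1h2bc took 0.922, 0.774, 0.436 and 0.591 of 10000 UMIs in cycling and 2.14, 1.49, 1.08 and 1.24 in resting cells. Hist1h2ac, which starts 251 bases from Hist1h2bc on the other strand, had a log2 difference of -0.17 ± 0.13 (edgeR adjusted p = 0.309). In another such pair, 239 bases apart on chromosome 3, Hist2h2ac rose by 3.35 ± 0.16, and Hist2h2be had -0.32 ± 0.16 (edgeR adjusted p = 0.127).

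H3 and H4 genes encode the partners at the centre of the nucleosome. Hist1h3b and Hist1h3c rose by 4.50 ± 0.24 and 4.28 ± 0.24 on the log2 scale. Hist1h3c had 46.3, 54.3, 30.8 and 34.4 CPM in cycling cells and 4.37, 1.40, 0.688 and 1.80 CPM in resting cells, with no overlap. Hist1h3e, Hist1h3f and Hist1h3i rose by 3.06, 3.76 and 3.36. Hist2h3c2 was the H3 gene called as lower (-0.72 ± 0.18, edgeR adjusted p = 0.0057), at 0.870 to 4.78 CPM in all sums. Among H4 genes, Hist1h4d had 187, 256, 140 and 213 CPM when cycling and 43.2, 41.0, 21.0 and 50.6 CPM when resting (log2 fold change 2.37 ± 0.11), and Hist1h4i rose by 1.22 ± 0.08. No test compared the histone types with each other.

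**Figure D2:**
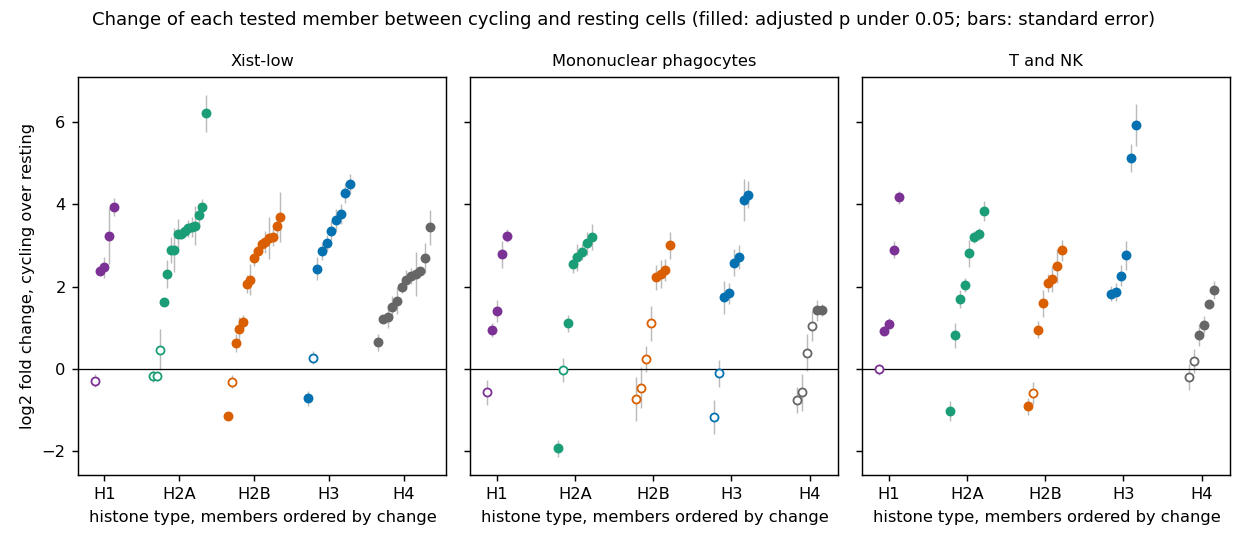
Log2 fold change of each tested member, cycling over resting (y axis), in 3 classes, with members grouped by histone type and ordered by change. Filled points passed an adjusted p of 0.05 and bars are standard errors. Most points lie above 0, with Hist1h2bc (-1.13 in Xist-low cells) and Hist3h2a (-1.92 in mononuclear phagocytes) as the lowest filled points.

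The immune classes gave like results on fewer genes. In mononuclear phagocytes 22 of 35 tested members were higher and 1 lower, against 22.1% of all genes called, 10.2% as higher and 11.9% as lower, with a median log2 fold change of 1.42. Cluster 9 held 39 of 281, 66 of 105, 15 of 80 and 3 of 125 cycling phagocytes, against 20 of 895 resting ones in WT 2. Before removal of high doublet scores, 49.5% of its cells had one, and it was named by 3 phagocyte markers. A value without cluster 9 is given below for Hist3h2a, and its part in the changes of other members is not given here. In T and NK cells 27 of 33 were higher and 2 lower, against 35.2% called, 16% as higher and 19.2% as lower, with a median of 1.87. Hist1h3b (5.92 ± 0.51), Hist1h3c (5.12 ± 0.34) and Hist1h1b (4.16 ± 0.16) had the largest log2 changes in T and NK cells. Neither Hist1h3b nor Hist1h3c passed the filter in resting T and NK cells alone. Their values thus rest on low resting counts, and the filter largely set their direction. The H2A gene Hist3h2a was lower in cycling phagocytes, with 12.7, 11.9, 11.7 and 15.9 CPM when cycling and 38.5, 32.4, 65.3 and 69.5 CPM when resting (-1.92 ± 0.21, edgeR adjusted p = 0.00175). With a single limit between the states its change was -1.13, and without clusters 2 and 9 it was -1.61 (edgeR adjusted p = 0.000292). It still passed in both. In T and NK cells Hist3h2a had 4.89, 5.34, 11.6 and 8.95 CPM when cycling and 12.4, 2.41, 19.1 and 24.9 CPM when resting, and WT 2 went the other way. Its change of -1.02 ± 0.25 (edgeR adjusted p = 0.00227) did not pass with DESeq2 (adjusted p = 0.201), with a single limit (-0.36, edgeR adjusted p = 0.143), when thinned to 1000 UMIs (-0.51, edgeR adjusted p = 0.0557) or with no block (edgeR adjusted p = 0.0695). Hist1h2bc was lower in cycling T and NK cells (-0.91 ± 0.21, edgeR adjusted p = 0.00136). It had 39.1, 32.0, 27.1 and 20.1 CPM when cycling and 148, 62.6, 31.6 and 50.8 CPM when resting, and WT 1, the highest at rest, had 49 resting cells. The call ended without KO 2 (-0.68, edgeR adjusted p = 0.0939) and with no block (edgeR adjusted p = 0.106), and the value was -1.49 without KO 1, -0.52 with a single limit and -0.57 when thinned to 1000 UMIs.

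The members were also grouped by the 3' ends of their gene models, which the rule did not use. In Xist-low cells the median log2 change between cycling and resting was 1.58 over the 20 tested members whose model went on for 100 bases or more after the stem-loop, 2.70 over the 21 that ended sooner and 3.23 over the 17 with no stem-loop in the model. The medians were 0.32, 2.54 and 2.40 in mononuclear phagocytes and 0.94, 2.53 and 2.76 in T and NK cells. Hist1h1c, Hist1h2ac, Hist1h1e and Hist3h2a are among the long models, and Hist3h2a goes on for 1643 bases. The ranges overlapped in Xist-low cells, from -0.72 to 3.76, 0.47 to 4.50 and -1.13 to 6.20, and 15 of the 20 long models were called as higher. The limit of 100 bases was chosen after the values were seen, and these medians are a description over genes that passed a filter on counts.

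Among cycling Xist-low cells, members were lower where UMIs of the S phase list outnumbered those of the G2M list. This lean is a balance of gene lists and not a measured cell cycle phase. Of 57 tested members, 50 were lower in S-leaning than in G2M-leaning cells and none was higher (edgeR with the tumour as a block), against 33.8% of all genes called, 15.9% as higher and 17.9% as lower. The median log2 difference was -0.77. Hist1h4d had 104, 125, 92.7 and 134 CPM in S-leaning and 228, 337, 170 and 252 CPM in G2M-leaning cells, a difference of -1.09 ± 0.06 (edgeR adjusted p = 2.04e-09). Hist2h2bb differed by -1.22, Hist1h4h by -1.01, Hist1h3b by -0.98, Hist1h1e by -0.78, Hist1h1c by -0.76, Hist1h1b by -0.65, Hist1h4i by -0.59 and Hist1h2bc by -0.41. Without the tumour as a block 4 members passed. The other classes had under 20 cells of a lean in at least 1 tumour and were not tested.

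Split further by the share of G2M UMIs among S and G2M UMIs, the members were not at a constant level in cycling cells. From 0-20% to 80-100% in steps of 20, they took 9.83, 21.9, 37.6, 40.8 and 30.7 of 10000 UMIs in WT 1, and 6.30, 17.5, 37.3, 41.0 and 32.0 in WT 2. KO 1 had 6.85, 14.9, 18.2, 19.5 and 17.3, and KO 2 had 10.9, 18.0, 26.1, 23.3 and 18.9. At 0-20% KO 1 lay between WT 2 and WT 1 and KO 2 lay above both, and at 20-40% KO 2 lay between WT 1 and WT 2. From 40% on both KO tumours were below both WT tumours. The 5 bins had 141 to 1205 cells per tumour.

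**Figure D3:**
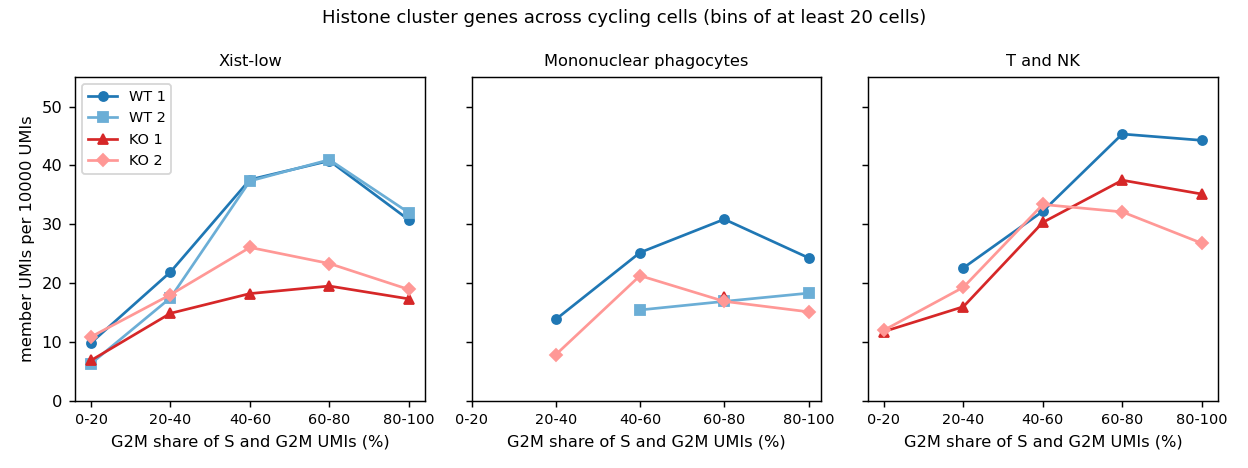
Member UMIs per 10000 UMIs (y axis) in cycling cells by the share of G2M among S and G2M UMIs (x axis, %), with 1 line per tumour and bins of at least 20 cells. In Xist-low cells the WT lines rise to 40.8 and 41.0 at 60-80% and the KO lines reach 19.5 and 26.1 at their highest, while all 4 lines lie between 6.30 and 10.9 at 0-20%.

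Between genotypes, 11 of 60 tested members were lower and none higher in cycling Xist-low cells of KO tumours (edgeR). Of all genes, 3.5% were called, 2.19% as higher and 1.32% as lower. The median log2 fold change was -0.66 over tested members and -0.006 over all genes, and 3 of 60 members had a positive value. Called as lower were 1 of 5 tested H1 members, 1 of 17 H2A, 5 of 15 H2B, 3 of 11 H3 and 1 of 12 H4 members. The number called depends on single tumours. Without KO 1 it was 1, and without WT 1 it was 23, while the median stayed between -0.53 and -0.88 in the 4 fits that left out a tumour.

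For H1, Hist1h1c had 147, 161, 61.5 and 94.3 CPM in cycling cells, with no overlap of the groups and a log2 fold change of -0.98 ± 0.20 (edgeR adjusted p = 0.0491, and 0.114 without KO 1). Hist1h1b had 409, 512, 186 and 275 CPM, which do not overlap either, at -0.999 ± 0.21 (edgeR adjusted p = 0.0546, and 0.00207 without WT 1). Hist1h1e had 283, 322, 155 and 236 CPM, at -0.63 ± 0.20 (edgeR adjusted p = 0.128). The called H2A gene was Hist1h2ae, with 287, 223, 116 and 142 CPM and a log2 fold change of -0.98 ± 0.17 (edgeR adjusted p = 0.0376). Hist1h2ap had 908, 504, 406 and 457 CPM, where WT 1 stood apart and the other 3 tumours were close (-0.71 ± 0.26, edgeR adjusted p = 0.164).

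Hist1h2bc had the lowest fold change of the H2B genes, with 145, 116, 42.1 and 64.0 CPM and a log2 fold change of -1.30 ± 0.21 (edgeR adjusted p = 0.0349). Hist1h2bb had 20.7, 17.0, 7.93 and 10.1 CPM (-1.07 ± 0.17, edgeR adjusted p = 0.0316), so each WT value was above each KO value. Hist1h2br (-1.21), Hist1h2bm (-0.85) and Hist1h2bn (-0.97) were also called, and Hist2h2bb was not (-0.90 ± 0.22, edgeR adjusted p = 0.0723). For H3, Hist1h3c had 45.6, 53.4, 30.3 and 33.7 CPM (-0.63 ± 0.12, edgeR adjusted p = 0.048), and Hist1h3b (-0.71) and Hist2h3b (-1.16) were called with it. Hist1h3e had -0.63 ± 0.18 (edgeR adjusted p = 0.0961). For H4, Hist1h4h had 34.4, 34.4, 15.9 and 21.8 CPM (-0.86 ± 0.16, edgeR adjusted p = 0.0429). Hist1h4d had 184, 252, 138 and 209 CPM, with KO 2 between the WT tumours (-0.33 ± 0.23, edgeR adjusted p = 0.427), and Hist1h4i had -0.53 ± 0.27 (edgeR adjusted p = 0.276).

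**Figure D4:**
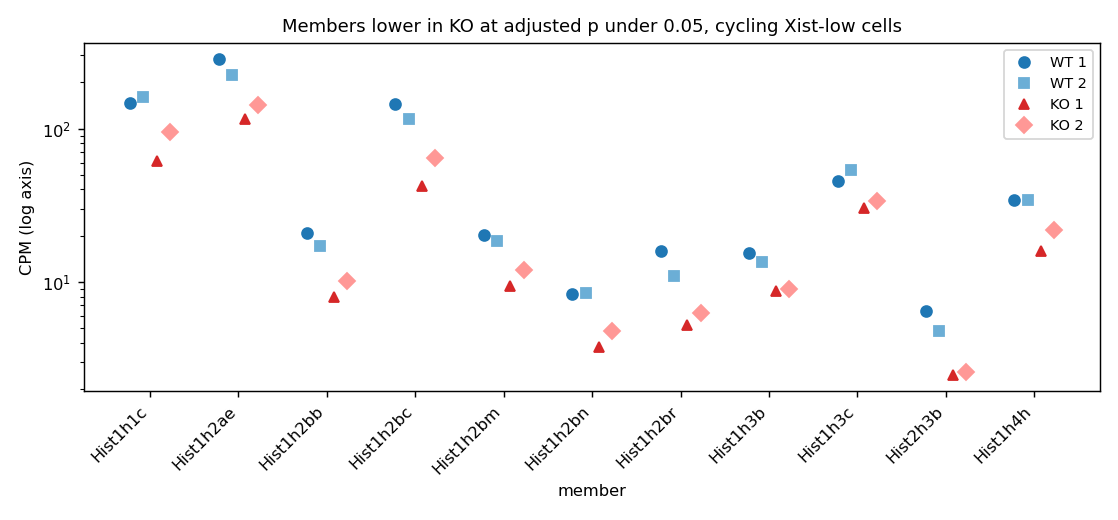
CPM on a log axis (y axis) of the 11 members lower in KO at adjusted p under 0.05 in cycling Xist-low cells, with 1 symbol per tumour. Both KO symbols lie below both WT symbols for each member, for example 42.1 and 64.0 CPM against 145 and 116 CPM for Hist1h2bc.

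The share was compared within clusters and within depths. In cluster 0, cycling cells had 34.2 and 27.3 member UMIs per 10000 in WT and 16.6 and 20.5 in KO, and in cluster 1 33.3 and 33.4 in WT and 18.4 and 21.2 in KO. Clusters 2, 3 and 5 had both KO tumours below both WT tumours, although each KO tumour had only 3 to 58 cycling cells in each of them. Cluster 18 did not, with 22.7, 20.4, 15.01 and 24.7, where KO 2 was the highest, in 80, 40, 21 and 24 cells. A fit of cluster 0 cells called 1 of 58 members, with a median log2 fold change of -0.71, and a fit of cluster 1 cells called 2 of 54, with a median of -0.75. Among cycling cells under 8000 UMIs the members had 18.49, 25.5, 12.8 and 18.55 UMIs per 10000, and at 8000 to 15000 UMIs 24.9, 31.4, 12.6 and 25.9, so that KO 2 lay between the WT tumours in both. KO tumours had 37 to 59 cells in these bands. At 15000 to 25000 UMIs the values were 35.4, 28.9, 22.2 and 17.2. Among cycling cells of 25000 to 40000 UMIs the members had 32.5, 32.9, 15.9 and 21.7 UMIs per 10000, and 96.3, 100.3, 53.3 and 70.7 UMIs per cell. Above 40000 UMIs the values were 26.6, 20.8, 16.5 and 19.8 per 10000, where WT 2 and KO 2 were close. A fit restricted to cells of 15000 to 40000 UMIs called 14 members, with a median of -0.78. The share of all genes called and their median in the cluster and depth fits are not given here.

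In resting Xist-low cells 2 of 37 tested members were lower in KO and none higher, against 6.3% of all genes called, 4.1% as higher and 2.19% as lower. They were Hist1h1c, with 257, 251, 50.4 and 79.4 CPM (log2 fold change -1.97 ± 0.21, edgeR adjusted p = 0.00292), and Hist1h2bc, with 291, 318, 94.7 and 134 CPM (-1.41 ± 0.19, edgeR adjusted p = 0.00728). The same genes were the 2 of 60 called as lower over all Xist-low cells, where 7.77% of genes were called, 3.94% as higher and 3.83% as lower. There Hist1h2bc had 188, 187, 49.7 and 71.4 CPM (-1.63 ± 0.18, edgeR adjusted p = 0.0126) and Hist1h1c 173, 188, 59.8 and 92.9 CPM (-1.24 ± 0.21, edgeR adjusted p = 0.0267). The share of cycling cells was higher in KO, and its part in these values over all cells was not tested. Markers of fibroblasts, summed over 10 genes, were at 35.0, 45.9, 40.6 and 28.4 per 10000 UMIs in resting and 8.11, 7.87, 7.997 and 4.63 in cycling Xist-low cells, and their part in these results was not tested. Markers of other types were lower in level and higher in both KO tumours than in both WT tumours. In cycling cells 13 phagocyte markers summed to 2.61, 1.005, 3.97 and 3.16 per 10000 UMIs, 12 T and NK markers to 0.106, 0.0419, 0.327 and 0.231, and 10 neutrophil markers to 0.123, 0.135, 0.352 and 0.180, with the same order in resting cells. Their part was not tested either. Without cluster 3 the resting differences were -1.86 for Hist1h1c and -1.52 for Hist1h2bc. In cluster 0 alone they were -0.78 (edgeR adjusted p = 0.154) and -0.66 (edgeR adjusted p = 0.179), so neither was called.

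The change between states differed by genotype for 1 of 59 members in Xist-low cells, against 1.93% of all genes, 0.58% as higher and 1.35% as lower. This was Hist1h1c, whose interaction term was 1.03 ± 0.11 on the log2 scale (edgeR adjusted p = 2.78e-05). In this fit its cycling and resting levels were 152 and 253 CPM in WT 1 and 165 and 246 CPM in WT 2, against 63.4 and 48.0 CPM in KO 1 and 97.3 and 76.4 CPM in KO 2. Hist1h1c was thus higher at rest in the WT tumours and higher when cycling in the KO tumours. In cluster 0 the term was -0.02 (edgeR adjusted p = 0.991), and the WT levels there were 1.29 and 1.30 of 10000 UMIs when cycling and 1.34 and 0.932 when resting. Without cluster 3 it was 0.93.

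**Figure D5:**
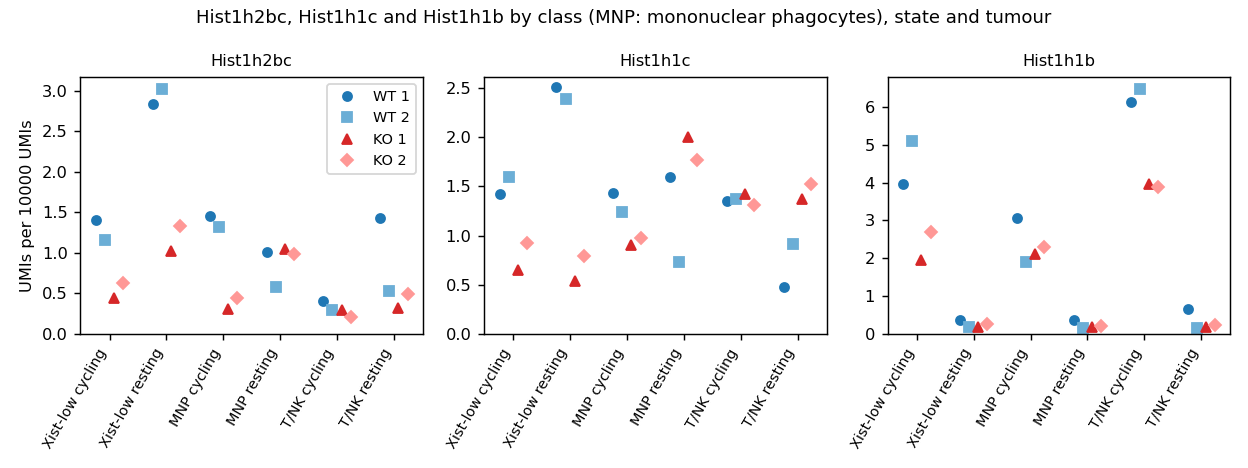
UMIs of Hist1h2bc, Hist1h1c and Hist1h1b per 10000 UMIs (y axis) by class and state, with 1 symbol per tumour. Hist1h1b lies between 0.148 and 0.657 in resting cells of the 3 classes, whereas Hist1h2bc and Hist1h1c reach their highest Xist-low values in resting WT cells (2.84 and 3.03 for Hist1h2bc, 2.51 and 2.40 for Hist1h1c).

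In immune cells, which come from the host mouse, few members differed between tumours of the 2 genotypes. Over all mononuclear phagocytes 1 of 42 members was higher and 1 lower, against 11.8% of all genes called, 5.18% as higher and 6.64% as lower. Hist3h2a had 25.2, 25.3, 57.1 and 58.4 CPM (log2 fold change 1.20 ± 0.15, edgeR adjusted p = 0.0111), and Hist1h3c had 13.3, 7.96, 2.29 and 4.35 CPM (-1.71 ± 0.40, edgeR adjusted p = 0.0424). The share of cycling cells among phagocytes with at least 2000 UMIs was 21.1% and 8.68% in WT and 2.73% and 5.65% in KO, and its part in these differences was not tested. The clusters differed too, since cluster 4 held 1568 of 2367 and 1013 of 1773 resting phagocytes in KO and 47 of 550 and 231 of 895 in WT. Without clusters 2 and 9 neither passed (Hist3h2a 1.004, edgeR adjusted p = 0.0973). Hist1h3c also missed the threshold without WT 1 (edgeR adjusted p = 0.171) and without KO 1 (0.0954), and its value was -0.97 with doublets kept (0.0609). Within cycling and within resting phagocytes edgeR called no gene at all, at 31 and 33 members tested, with 2 and 5 members at an unadjusted p under 0.05, and 2 and 1 members passed in DESeq2. Hist3h2a had log2 fold changes of 0.18 ± 0.38 in cycling and 0.92 ± 0.18 in resting phagocytes. Hist1h3c had -0.39 ± 0.30 in cycling and -1.58 ± 0.51 in resting phagocytes, the latter at 0.746 to 3.36 CPM. No member's change between states differed by genotype in phagocytes (39 tested) or in T and NK cells (36 tested). Of all genes, 0 and 0.29% were called there. At an unadjusted p under 0.05 in edgeR were 5 and 6 of these members. The share of all genes at an unadjusted p under 0.05 is not given for these counts or for the 2 and 5 within states.

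Over all T and NK cells 1 of 40 members was higher and 2 lower, against 2.87% of all genes called, 1.6% as higher and 1.27% as lower. Hist3h2a was higher again, at 7.93, 4.61, 18.4 and 21.4 CPM (log2 fold change 1.60 ± 0.33, edgeR adjusted p = 0.0375). Hist1h1b was lower, at 279, 163, 98.0 and 106 CPM (-1.13 ± 0.23, edgeR adjusted p = 0.0358), and so was Hist2h2bb (-1.08 ± 0.23). Without KO 1 or without KO 2 none of these 3 passed, with adjusted p of 0.0847 to 0.389 in edgeR, and Hist2h2bb did not pass without WT 1 either (0.178). Without WT 1 the Hist1h1b value was -0.67, and it passed. The cycling share among T and NK cells with at least 2000 UMIs was 46.5%, 15.9%, 14.2% and 13.1%, where 252 of 527, 208 of 459, 201 of 2150 and 405 of 2214 cells had fewer, and its part in these differences was not tested. In cycling T and NK cells, of which WT 2 had 40, Hist1h1b remained lower with 621, 726, 377 and 387 CPM (-0.81 ± 0.20, edgeR adjusted p = 0.0377) and Hist1h4i was lower with 71.1, 88.1, 37.6 and 34.6 CPM (-1.07 ± 0.27, edgeR adjusted p = 0.0432). These were 2 of 36 members, against 2.05% of all genes called, 0.981% as higher and 1.07% as lower. Leaving out any 1 of the 4 tumours ended both calls in cycling cells, with adjusted p of 0.0557 to 0.225 in edgeR. In resting T and NK cells, Hist1h1d was higher at 17.3, 18.5, 68.9 and 51.1 CPM (1.73 ± 0.40, edgeR adjusted p = 0.00866), and Hist1h2bc lower at 139, 60.2, 30.6 and 49.02 CPM (-1.12 ± 0.31, edgeR adjusted p = 0.0375). These were 2 of 25 members, against 3.34% of all genes called, 2.17% as higher and 1.17% as lower. Of the resting T and NK cells, cluster 8 held 6 of 49 and 31 of 137 in WT and 476 of 1056 and 425 of 1022 in KO. Hist1h1d did not pass without WT 2 or KO 1 (edgeR adjusted p = 0.0713 and 0.122), nor Hist1h2bc without WT 1 or KO 1 (0.387 and 0.482). The Hist1h2bc value was -0.60 without WT 1, -1.76 without WT 2 and -0.44 when thinned to 1000 UMIs.

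The other classes had fewer cells. In dendritic cells Hist1h1b was 1 of 11 tested members and lower at 177, 36.5, 13.02 and 14.5 CPM (log2 fold change -3.16 ± 0.51, edgeR adjusted p = 0.0205), against 0.799% of all genes called. WT 1 held 19 cycling dendritic cells and the other tumours 0, 1 and 6. Without WT 1 the value was -1.39 (edgeR adjusted p = 0.49), and without KO 1 it was -3.00 (0.0577). None of 7 tested members in neutrophils or of 8 in fibroblasts was called by edgeR, against 0 and 0.0365% of all genes called. At an unadjusted p under 0.05 were 0 and 2 of these members, and the share of all genes at that p is not given.

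Lists of genes that make, process or carry histone RNA and protein were compared in the same way. The counts in this and the next paragraph are to be read beside the shares of all genes called, given above for each comparison. The cells were sorted into states by S and G2M genes. In Xist-low cells 13 of 18 genes of histone transcription and RNA end processing were higher in cycling cells, among them Ccne1 (2.59) and Ccne2 (2.55), the cyclins E that act at the start of S phase, E2f1 (1.37) and Slbp (1.08), which encodes the stem-loop binding protein. Of 5 measured genes of histone RNA decay 4 were higher, with Eri1, an exonuclease that trims the stem-loop end, at 1.19 and Upf1, a helicase of RNA decay, at 0.43. Of 19 chaperone genes 16 were higher and 1 lower. Asf1b, a carrier of H3 and H4, was at 3.69, and Chaf1a, a subunit of the chromatin assembly factor, at 2.63. Of 10 histone genes outside the clusters, 9 were higher, with H2afz at 1.70 and H2afx at 1.62.

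Between genotypes no gene of these 4 lists was called in cycling Xist-low cells. Over all Xist-low cells Ccne1 (1.08 ± 0.17, edgeR adjusted p = 0.0246), Asf1b (0.50) and Chaf1b (0.57) were higher in KO, where the share of cycling cells was also higher; its part in this was not tested. In resting cells the H3 and H4 chaperone Nasp was higher (0.80, edgeR adjusted p = 0.0419) and the linker histone H1f0 lower (-0.98, edgeR adjusted p = 0.0178). Of the genes that set the state, 5 of 40 G2M genes and no S gene were lower in cycling KO cells. H2afx (-1.24), H1f0 (-1.05) and H1fx (-1.05) were lower in S-leaning cells like most members, whereas E2f1 (1.04), Ccne1 (1.03) and Chaf1b (1.18) were higher there. Over all mononuclear phagocytes 4 of 10 histone genes outside the clusters and 2 of 19 chaperone genes were lower in KO tumours and none higher. These were H1fx (-3.19, edgeR adjusted p = 0.00673), H1f0 (-1.35), H2afy2 (-2.13), H2afx (-0.97), Hjurp (-0.92) and Chaf1a (-1.16). None of them was called within cycling or within resting phagocytes, where edgeR called no gene. In T and NK cells H1fx was lower over all cells (-2.24, edgeR adjusted p = 0.0261) and H1f0 in cycling cells (-0.96, edgeR adjusted p = 0.0314), and no other gene of these lists was called between genotypes.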

How the data were processed

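The deposited files hold raw UMI counts per gene and cell, made by the authors with Cell Ranger. The labels' protocols give version 5.0.1 with mm10 and default parameters, whereas the file headers give 6.1.2. Per the submitters' processing notes Seurat 5.1.0 was used, with no role given. Cells needed 300 genes, 500 UMIs and a mitochondrial share of no more than 20%, and the highest doublet scores were removed at 0.8% per 1000 cells, because the doublet caller's own threshold marked 0% of cells in both WT libraries. Cells were clustered with scanpy 1.11.5 (2000 variable genes, 30 components, 15 neighbours, Leiden resolution 1). Counts were summed per tumour, class and state where at least 20 cells were present in each tumour. The sums were tested with edgeR 4.0.16 (quasi-likelihood test, TMM scaling, its filter on low counts, Benjamini-Hochberg adjustment over all genes, threshold 0.05). Comparisons within tumours had the tumour as a block, and errors of fold changes are standard errors. The scripts were tested on simulated data. Alternatives were DESeq2 1.42.0, other size factors, no filter, doublets kept, other state limits, each tumour left out and a replicate block. Those by cluster and by depth, and the crossed block, were chosen after seeing the data. The labels do not say what the replicates are beyond separate tumours, so p-values between genotypes are set against the spread between these tumours. Those with the tumour as a block are set against how the difference within a tumour varies between these tumours.

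The members and gene lists were chosen with earlier results of these data known. Named members were those called between genotypes, in the interaction or between S-leaning and G2M-leaning cells (up to 15 by p), the 15 largest called changes between states at a mean of 5 CPM or more in Xist-low cells, the 2 highest of each histone type, and called members going against their type's median. Pathway genes were called genes, up to 4 a list by p. Neighbours of named genes, and genes not called that are given beside them, were added after their values were seen. Intervals on shares are not given, since the tumours are the replicates.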

Additional observations from a re-analysis of the deposited data

Results flagged for a closer look

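The change of Hist4h4, an H4 gene on chromosome 6, had opposite directions in 2 classes. Its mean log2 ratio of cycling to resting cells over the 4 tumours was 0.7835 in Xist-low cells and -0.605 in mononuclear phagocytes, with all 4 tumours above 0 in the first (KO 1 by 0.0035) and below 0 in the second. The fitted log2 changes were 1.66 (edgeR adjusted p = 0.0016), which passed, and -0.75 (edgeR adjusted p = 0.123), which did not. The difference between the classes was not tested.

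The term for state by genotype of Hist1h1c in Xist-low cells was 1.0256 on the log2 scale, and it passed the threshold of edgeR's test of the difference.

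Cluster 13, which has no class name and enters no comparison, had 59.544 member UMIs per 10000 in 20 cycling cells of KO 1 and 102.0 in 38 cycling cells of KO 2. The WT tumours had 29.6 and 40.7 in 23 and 11 cycling cells.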

How the results depend on the processing

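Counts below are members past an adjusted p of 0.05, after the count first reported. The share of all genes called with each alternative is not given here. Between genotypes in Xist-low cells, all cells gave 2, and 5 with DESeq2, 15 with no filter, 1 in cluster 1, 0 in cluster 0. Cycling cells gave 11, and 23 with DESeq2, 33 with no filter, 5 thinned to 1000 UMIs, 5 without clusters 2 and 9, 2 in cluster 1 and 1 in cluster 0. Resting cells gave 2, and 8 with no filter and 0 in cluster 0. The interaction gave 1, and 7 with no filter, 2 with a single limit, with stricter limits and thinned to 1000, 3 without cluster 3 and 0 in cluster 0, where the Hist1h1c term turned to -0.0198. In mononuclear phagocytes the states gave 23, and 35 with doublets kept. Between genotypes all phagocytes gave 2, and 5 with DESeq2, 13 with no filter, 0 without clusters 2 and 9. Cycling ones gave 0, and 2 with DESeq2 and with no filter. Resting ones gave 0, and 1 with DESeq2, 4 with no filter, 1 with doublets kept, and their interaction 0, and 2 with no filter. All T and NK cells gave 3, and 1 with DESeq2 and 11 with no filter. Cycling ones gave 2, and 1 with DESeq2, no filter or stricter limits and 0 with doublets kept or thinned to 1000. Resting ones gave 2, and 0 with DESeq2 and 1 with doublets kept, a single limit or thinned to 1000. All dendritic cells gave 1, and 4 with no filter and 0 with doublets kept, and resting ones 0, and 1 with no filter. The cause of these changes was not tested.

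Same-numbered WT and KO tumours did not deviate together (correlations of -0.27 to -0.11 in Xist-low cells), so the numbers were not taken as pairs. The replicate block gave 23 in cycling and 5 in resting Xist-low cells, 5 in all phagocytes, 5 in all and 1 in cycling T and NK cells, and 3 in all and 1 in resting dendritic cells. S-leaning against G2M-leaning cells gave 50, and 4 with no replicate block. The crossed pairing, tried for the negative correlations, gave 10, 28 and 6 in all, cycling and resting Xist-low cells, 13, 2 and 3 in phagocytes, 7 in all T and NK cells and 2 in all dendritic cells.

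Leaving out 1 tumour at a time gave 47 to 53 between states, 2 to 11, 1 to 23 and 2 to 10 between genotypes in all, cycling and resting cells, 1 to 8 for the interaction and 47 to 52 for the lean in Xist-low cells. Phagocytes gave 18 to 24, 1 to 10, 0 to 1, 0 to 4 and 0 to 4, and T and NK cells 19 to 33, 0 to 18, 0 to 3, 0 to 4 and 0 to 0. Neutrophils gave 0 to 2, fibroblasts 0 to 3 and at rest 0 to 0, dendritic cells 0 to 4 and at rest 0 to 1.

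KO minus WT in UMIs per 10000 moved in cycling Xist-low cells to -14.5905 over all members with stricter limits, for H2B to -1.0833 in cluster 0, and for H3 to -0.7499 with stricter limits, -0.7245 in cluster 1 and -0.7094 at 15000 to 40000 UMIs. At rest H1 moved to -1.2663 thinned to 1000, -1.2388 in cluster 0 and -1.2561 at 15000 to 40000 UMIs, and H2B to -0.7188 in cluster 0 and -1.3851 at 15000 to 40000. At rest H2A turned to 0.1485 and H3 to 0.0265 when thinned to 1000, and to 0.3625 and 0.0147 without WT 1. Leaving out 1 tumour gave -13.7 to -9.70 over all cycling members, -5.12 to -3.17 for H1, -6.65 to -2.74 for H2A, -1.62 to -1.20 for H2B, -0.661 to -0.477 for H3 and -1.37 to -0.425 for H4. At rest it gave -5.51 to -3.02, -2.07 to -1.54, -1.02 to 0.363, -2.002 to -1.63, -0.176 to 0.0147 and -0.426 to -0.0448.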
